A study of Mus musculus with 6 samples.

Results

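The levels of 9 genes were followed across RA-induced differentiation of mouse ESCs, the GATA transcription factor genes Gata2, Gata3, Gata4, Gata5 and Gata6 and the genes of the endocytic machinery of visceral endoderm, Dab2, Amn, Cubn and Lrp2. They were taken by name from an RNA-seq table with 23235 entries, and each name matched 1 entry. RNA came from E14Tg2a, a feeder-independent line of mouse ESCs, in 6 samples. In the first group, of 3 samples, pluripotent ESCs were kept in medium with LIF (leukemia inhibitory factor). The second group, also of 3 samples, held NCs (Neuronal Cells), cultured as a monolayer without LIF and with 1 μM RA (retinoic acid) for 48 h. Both groups grew in serum-containing medium and came from 1 line, for which the labels name no transgene. NCs differed from ESCs in several ways at once, so that LIF withdrawal, RA and time in culture cannot be told apart. The deposited table carries 1 FPKM value (fragments mapped to a gene, divided by transcript length and by all mapped fragments) per gene and condition, which the authors' software estimated from the 3 samples together. No spread between samples could therefore be computed from these values, no difference was tested here, and every ratio is a description without a replicate check.

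GATA factors are zinc finger proteins that bind the DNA core sequence from which they take their name. Gata4 and Gata6 drive the formation of primitive endoderm, the layer of the early embryo that gives rise to visceral and parietal endoderm, while Gata2 and Gata3 act in trophoblast and blood and Gata5 in heart and endoderm. Visceral endoderm takes up maternal nutrients. Cubn encodes cubilin, a large receptor with no membrane anchor of its own, and Amn encodes amnionless, the partner that brings cubilin to the cell surface and holds it there. Lrp2 encodes megalin, a giant receptor of the lipoprotein receptor family, and Dab2 encodes the adaptor that links such receptors to clathrin. Forced expression of Gata4 or Gata6 is known to turn ESCs into endoderm, and RA is widely used to make endoderm from embryonal carcinoma cells.

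Pluripotency markers and RA response genes differed in the direction of the labels LIF and RA, while neural markers had no common direction. All 10 pluripotency markers were at least 2-fold lower in NCs, with Pou5f1 at 832 FPKM in ESCs against 37.1 FPKM in NCs. All 8 RA response genes were at least 2-fold higher, with Cyp26a1, the enzyme that degrades RA, at 0.874 and 215 FPKM. Neural markers were mixed. Of the 9 with a mean FPKM over both conditions of at least 1, 3 were at least 2-fold higher in NCs, 3 at least 2-fold lower and 3 in between. The 3 left out by that limit, Dcx, Neurog1 and Neurog2, were under 1 FPKM in both conditions. All of these were more than 2-fold higher in NCs, at 0.334, 0.710 and 0.913 FPKM against 0.0140, 0.0958 and 0.0436 FPKM in ESCs. Pax6, a neural progenitor factor, went from 3.64 FPKM in ESCs to 65.2 FPKM in NCs, whereas Tubb3, which encodes a neuronal tubulin, was at 33.4 FPKM in ESCs against 7.54 FPKM in NCs. FPKM summed to 770592 in ESCs and 628679 in NCs, a difference that would add 0.29 to each log2 ratio if both were scaled to the same sum.

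Of the 9 genes, 6 were at least 2-fold higher in NCs, namely Gata2, Gata3, Gata5, Gata6, Dab2 and Cubn. None was 2-fold lower, and Gata4, Amn and Lrp2 lay within 2-fold. Among all 12784 genes with a mean FPKM of at least 1, 11.1% were at least 2-fold higher in NCs and 9.93% at least 2-fold lower. After scaling both conditions to the same sum, the shares were 16.4% and 6.77%, and the same 6 of the 9 genes were past the limit. Gata5 did not reach that mean, with 0.748 FPKM, and Gata3 reached it only through its level in NCs. Among the 18191 genes above 0 in both conditions, which include all 9, the shares were 16.2% higher and 13.2% lower. In a band with a mean of 1 to 20 FPKM, which was chosen after the data were seen because 8 of the genes fall in it, 14.8% of 8283 genes were higher and 11.3% lower. The median log2 ratio of NC over ESC was 1.10 over the 9 genes, with a range from -0.10 to 4.30, against -0.04 over the 12784 genes. Over the 8 of the 9 with a mean of at least 1 FPKM, the median was 1.06. Fewer cells of a type and less RNA per cell cannot be told apart in such bulk samples. The plot of levels shows that the pairs of points are far apart for Gata3 and Gata5 and nearly coincide for Gata4 and Amn.

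**Figure D1:**
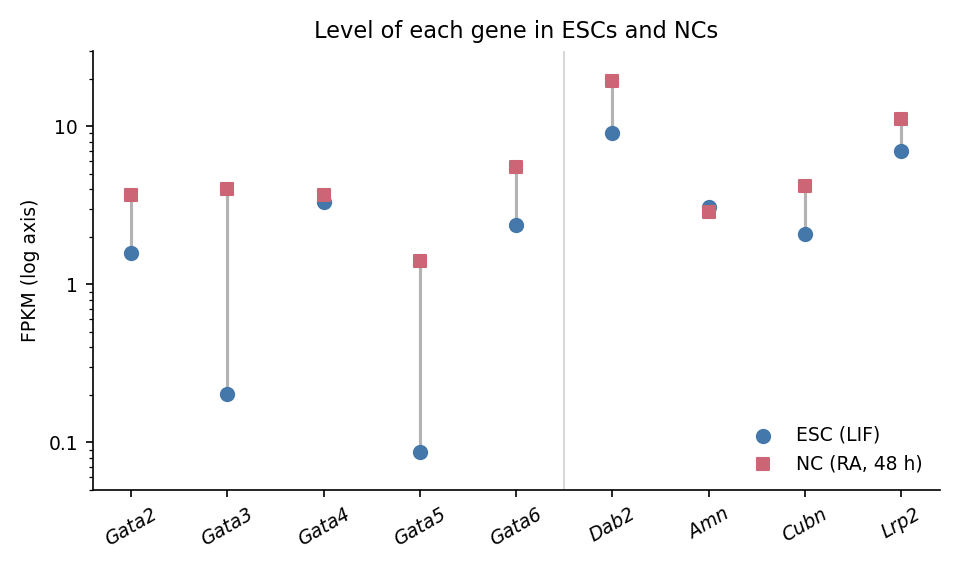
FPKM (log axis) of the 9 genes in ESCs (circles) and NCs (squares), 1 pooled value from 3 samples per point and no error bars, since the table holds no values of single samples. Gata3 goes from 0.204 to 4.02 FPKM and Gata5 from 0.0864 to 1.41 FPKM, while Gata4 (3.30 and 3.69 FPKM) and Amn (3.07 and 2.87 FPKM) have nearly the same level in both, with the order of the Amn values turning when both conditions are scaled to the same sum.

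The widest ratios were those of 2 Gata factors that were scarce in ESCs. Gata3, a factor of the trophoblast, stood at 0.204 FPKM in ESCs and, in NCs, 4.02 FPKM, a 19.8-fold higher level and a log2 ratio of 4.30. Of the 12784 genes with a mean FPKM of at least 1, 153, or 1.20%, had a larger ratio. Gata3 is in this set only through its level in NCs, and its rank among genes with lower means was not computed. Gata5, a factor of cardiac and endodermal tissues, stood at 0.0864 FPKM in ESCs against 1.41 FPKM in NCs, which is 16.3-fold higher. A larger ratio was held by 176 of the same genes, or 1.38%, a set that leaves out Gata5 itself, whose mean was 0.748 FPKM. Its rank among genes with lower means was not computed. The share of genes at least 2-fold higher was 16.2% with every gene above 0 in both conditions included, against 11.1% in that set. On the scale of differences rather than ratios, Gata5 was 1.32 FPKM higher, less than any gene of the 9 except Gata4 and Amn, and Gata3 was 3.82 FPKM higher. In NCs the level of Gata5 was higher than that of 48.2% of all entries of the table, and that of Gata3 higher than that of 57.9%, so that both lay near the middle of the table, whereas the shares in ESCs were 31.3% and 36.3%.

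Low values rest on few fragments, and the fold changes of both genes depend on how such values are treated. What 1 fragment is worth was estimated from the smallest nonzero FPKM of single-transcript genes, a step chosen after the data were seen. Per 1 kb of usable transcript it came to 0.0120 or 0.0138 FPKM for ESCs, and to 0.00715 or 0.0136 FPKM for NCs. At the larger step, the ESC level of Gata5 corresponded to about 19 fragments over the 3 samples and that of Gata3 to about 45. The NC levels corresponded to about 319 fragments for Gata5 and about 893 for Gata3. Every other value of the 9 genes came to at least 317 fragments by the same reading, and every value lay above a floor of 3 fragments, which was 0.0134 FPKM in ESCs for Gata5 and 0.0137 FPKM for Gata3. These numbers are approximate and cover counting error only. With 1 FPKM added to both values, the ratio was 4.17 for Gata3 and 2.22 for Gata5.

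Gata2 and Gata6 differed by nearly the same ratio. Gata2, which acts in blood progenitors and trophoblast, had 1.59 FPKM in ESCs against 3.68 FPKM in NCs, a 2.32-fold higher level. Gata6, a driver of primitive endoderm, had 2.37 FPKM in ESCs and, in NCs, 5.48 FPKM, a 2.31-fold higher level. The 2 log2 ratios, 1.22 and 1.21, were passed by 1105 and 1120 of the 12784 genes. Gata6 had the highest level of the 5 Gata factors in NCs and the largest difference of the factors after Gata3, at 3.11 FPKM. With 1 FPKM added to both values, the ratios were under 2-fold, at 1.81 for Gata2 and 1.92 for Gata6.

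Gata4, which acts with Gata6 in primitive endoderm, did not share this pattern. It had 3.30 FPKM in ESCs, the highest level of the 5 factors there, and 3.69 FPKM in NCs, a 1.12-fold higher level. Gata6 stood at 0.718 times the level of Gata4 in ESCs and at 1.48 times its level in NCs, so the order of these 2 factors turned. Gata3 likewise went from 0.129 times the level of Gata2 to 1.09 times. Ratios between 2 genes within a condition do not depend on how the conditions were scaled. Whether Gata4 differs between the conditions was not tested here.

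The 5 factors together summed to 7.55 FPKM in ESCs against 18.3 FPKM in NCs, 2.42-fold higher. In ESCs, Gata4 supplied 43.7% of the sum, Gata6 31.4% and Gata2 21.0%, while Gata3 supplied 2.70% and Gata5 1.14%. In NCs the shares were more even, with 29.96% from Gata6, 22.0% from Gata3, 20.2% from Gata4 and 20.1% from Gata2. Gata5 supplied 7.71%. The order of levels in ESCs was Gata4, Gata6, Gata2, Gata3, Gata5, and in NCs it was Gata6, Gata3, Gata4, Gata2, Gata5. In NCs the levels of Gata3, Gata4 and Gata2 ran only from 4.02 to 3.68 FPKM, and without a spread between samples their order cannot be relied on.

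**Figure D2:**
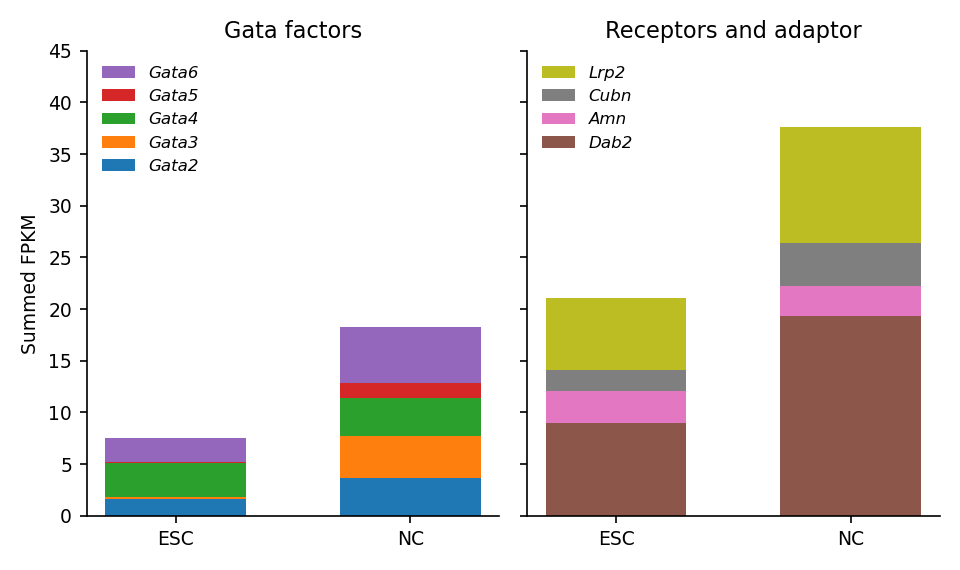
Summed FPKM of the 5 Gata factors (left) and of the 3 receptor genes and the adaptor gene (right) in ESCs and NCs, with each segment 1 gene and 1 pooled value from 3 samples. The Gata factors sum to 7.55 and 18.3 FPKM and the endocytic genes to 21.1 and 37.6 FPKM, and the segments of Gata3 and Gata5 are thin in ESCs.

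None of 6 other genes with GATA-type zinc fingers was past 2-fold higher in NCs. Of these 6, 5 had a mean FPKM of at least 1, and 4 of these lay within 2-fold. Gatad2a, a subunit of the NuRD chromatin complex, was within 2-fold, at 42.9 FPKM in ESCs against 37.4 FPKM in NCs. Gata1, the erythroid factor and the sixth classical GATA gene, was at 0.749 FPKM in ESCs and, in NCs, 0.0773 FPKM, 9.69-fold lower and on about 10 fragments in NCs. Zglp1, a germ line member of the group, was the 1 gene past 2-fold lower among the 5, at 5.53 and 2.29 FPKM, and it lay within 2-fold when both conditions were scaled to the same sum.

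The partners of GATA factors with the widest ratios were cardiac genes. Of 17 partner genes in the table, 8 had a mean FPKM of at least 1, 8 were under 1 FPKM in both conditions, and 4 of the former 8 were at least 2-fold higher in NCs with none 2-fold lower. Hand2, a heart and limb factor, went from 0.0447 FPKM in ESCs to 3.11 FPKM in NCs, and Nkx2-5, a cardiac partner of Gata4, from 0.333 to 2.38 FPKM. Lmo4, an adaptor of the LIM domain class, was 3.95-fold higher at 26.1 FPKM. Tbx20, another cardiac factor and the remaining gene of the 17, was lower in NCs, at 1.32 FPKM in ESCs against 0.260 FPKM in NCs. The GATA cofactor Zfpm1 (FOG1) had 4.64 and 6.84 FPKM. Ldb1, the scaffold through which blood GATA complexes assemble, was the most abundant partner, with 74.1 FPKM in ESCs against 64.5 FPKM in NCs. The median log2 ratio of the 8 was 0.96. Of these 8, 3 passed the limit on the mean through NCs alone, all of them among the 4 higher genes. Among all genes with such a mean, 11.1% were at least 2-fold higher.

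Among the endocytic genes, Dab2 was the most abundant in both conditions. The adaptor was at 9.004 FPKM in ESCs and, in NCs, 19.3 FPKM, a 2.15-fold higher level. The difference, 10.3 FPKM, was the largest of the 9 genes. Dab2 stayed past 2-fold with 1 FPKM added to both values, at 2.03. Its level in NCs was higher than that of 80.7% of all entries, against 68.8% in ESCs.

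The receptor genes differed less. Cubn had 2.07 FPKM in ESCs against 4.21 FPKM in NCs, a ratio of 2.03 that lay just past the limit and came to 1.98 when 0.1 FPKM was added to both values. Lrp2 had 6.93 FPKM in ESCs against 11.2 FPKM in NCs, a 1.61-fold higher level inside the limit, which came to 1.98 when both conditions were scaled to the same sum. Amn had 3.07 FPKM in ESCs and, in NCs, 2.87 FPKM, 1.07-fold lower as deposited but 1.15-fold higher when scaled to the same sum. The direction for Amn is thus set by the scaling, and it was the only gene of the 9 for which that held.

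Cubilin and amnionless form 1 receptor complex, and their transcripts stood in different proportions in the 2 conditions. Cubn was at 0.676 times the level of Amn in ESCs and 1.47 times in NCs. Lrp2 was 3.34 times as abundant as Cubn in ESCs and 2.66 times in NCs. Dab2 stood at 1.30 times the level of Lrp2 in ESCs and 1.73 times in NCs. The 4 genes summed to 21.1 FPKM in ESCs against 37.6 FPKM in NCs, 1.78-fold higher, and the share of Amn in the sum was 14.6% and 7.64%. Dab2 made up 42.7% of the sum in ESCs and 51.4% in NCs. The order of levels was Dab2, Lrp2, Amn, Cubn in ESCs and Dab2, Lrp2, Cubn, Amn in NCs.

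**Figure D3:**
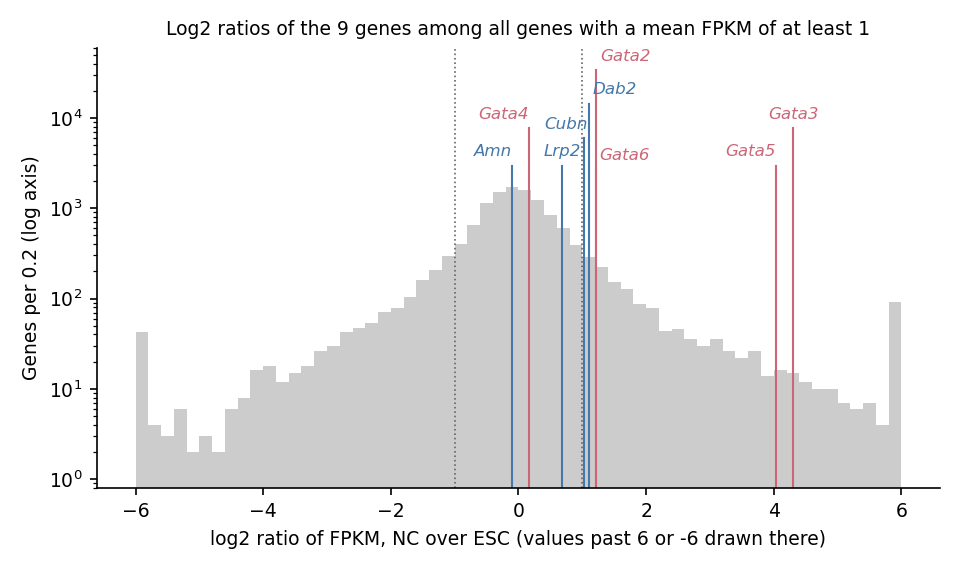
Distribution (grey, log axis, bins of 0.2) of the log2 ratio of FPKM, NC over ESC, over the 12784 genes with a mean FPKM of at least 1 (ratios past 6 or -6, and genes at 0 in 1 condition, in the end bins), with lines at the ratios of the 9 genes and dotted lines at 2-fold. Gata3 (4.30) and Gata5 (4.03, drawn although its mean is under 1 FPKM) lie in the right tail, the lines of Gata2 and Gata6 coincide at 1.22 and 1.21, and Amn (-0.10, or 0.20 when scaled to the same sum) and Gata4 (0.16) lie at the centre.

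The wider endocytic machinery was nearly level between the conditions. Of 29 partner genes of these receptors in the table, 27 had a mean FPKM of at least 1 and 23 of those lay within 2-fold, with a median log2 ratio of 0.07. The coat genes were abundant in both conditions. Clta, a clathrin light chain, had 231 and 209 FPKM, Cltc, the clathrin heavy chain, 99.9 and 92.1 FPKM, and Ap2m1, a subunit of the AP-2 adaptor, 94.4 and 92.3 FPKM in ESCs and NCs. Past 2-fold higher in NCs were Amot (4.13 and 13.1 FPKM), which encodes the membrane scaffold angiomotin, Clcn5 (3.92 and 9.87 FPKM), an endosomal chloride transporter gene of the kidney uptake route, and Lmbrd1 (2.76 and 5.88 FPKM), which encodes a lysosomal exporter of cobalamin. Pdzk1, a scaffold gene of epithelia, was 4.84-fold lower, at 11.1 FPKM in ESCs against 2.29 FPKM in NCs.

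Receptors related to Lrp2 showed no common direction. Of 11 other genes of the lipoprotein receptor family with a mean FPKM of at least 1, 8 lay within 2-fold and the median log2 ratio was 0.20. Lrp3 was higher in NCs, with 3.66 FPKM in ESCs and, in NCs, 12.8 FPKM, as was Lrp12, with 2.39 and 6.17 FPKM. Lrp11 was lower, with 24.4 and 11.9 FPKM, and this gene returned within 2-fold under either other scaling.

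Promoter sequence is shown for 3 genes past 2-fold and for Amn, which hardly differed, to set them side by side. RefSeq start sites on GRCm38.p6 gave 9 windows of 250 bases before the start, for 7 of the 9 genes. Each window was searched on both strands for GATA words (AGATAA, or the same with the first letter T, the last letter G, or both) and for half-site words of nuclear receptors such as the RA receptors (AGGTCA, or the same with the first letter G, the third letter T, or both). A GATA word was found in 1 of the 9 windows and a half-site word in 3, against 26.6% and 38.6% of 32817 such windows over the genome. The windows of Gata5, Dab2 and Cubn, genes past 2-fold with a match, and of Amn, with none, are given 5′ to 3′ with matches in capitals.
Gata5, chr2:180334680-180334929, minus strand: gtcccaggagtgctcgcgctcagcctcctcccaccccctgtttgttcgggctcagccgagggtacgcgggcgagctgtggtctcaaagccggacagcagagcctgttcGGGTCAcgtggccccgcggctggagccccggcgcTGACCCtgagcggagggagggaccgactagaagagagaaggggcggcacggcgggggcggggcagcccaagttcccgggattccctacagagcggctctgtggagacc
Dab2, chr15:6299539-6299788, plus strand: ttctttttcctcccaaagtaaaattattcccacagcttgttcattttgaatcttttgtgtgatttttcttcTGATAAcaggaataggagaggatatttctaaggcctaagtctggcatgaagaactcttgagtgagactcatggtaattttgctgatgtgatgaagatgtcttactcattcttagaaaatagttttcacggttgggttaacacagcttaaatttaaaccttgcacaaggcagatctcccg
Cubn, chr2:13491877-13492126, minus strand: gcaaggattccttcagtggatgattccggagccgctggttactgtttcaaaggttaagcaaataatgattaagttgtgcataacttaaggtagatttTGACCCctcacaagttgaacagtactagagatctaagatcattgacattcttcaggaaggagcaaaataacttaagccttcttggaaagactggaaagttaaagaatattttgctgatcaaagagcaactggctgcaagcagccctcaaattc
Amn, chr12:111270846-111271095, plus strand: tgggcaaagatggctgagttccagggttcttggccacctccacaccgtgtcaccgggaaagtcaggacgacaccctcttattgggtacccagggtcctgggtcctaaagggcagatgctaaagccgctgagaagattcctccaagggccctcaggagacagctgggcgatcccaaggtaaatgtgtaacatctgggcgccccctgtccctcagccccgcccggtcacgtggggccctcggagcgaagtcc
Gata5 held 2 half-site words, which began 142 and 108 bases before the start and faced opposite ways. The GATA word of Dab2 began 179 bases before the start, and the half-site word of Cubn 153 bases before it. A match is a string of letters and not a bound site, and sequence outside these windows was not searched. A window of Gata2 that lies within annotated exons held the remaining half-site word and is not shown. The other window of Gata2 and that of Gata3, both genes past 2-fold, held no match. The window of Lrp2, a gene within 2-fold, held none either. The windows shown were thus picked by their matches, and whether matches go with the ratios was not tested. The windows of Gata5 and Amn were rich in G and C (70% and 61.2%), those of Dab2 and Cubn shown here poor (36.8% and 39.6%). Dab2 has another RefSeq start, whose window (60% G and C) held no match and is not shown because most of it lies in annotated exons.

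Regulators of the primitive endoderm were set beside the Gata factors. Of 13 with a mean FPKM of at least 1, 8 were at least 2-fold higher in NCs and 2 at least 2-fold lower, with a median log2 ratio of 1.48. The same counts were found after centring on the median of all genes and after scaling to the same sum. Among all genes with such a mean, 11.1% were at least 2-fold higher and 9.93% at least 2-fold lower. Of the 13, 6 passed the limit on the mean through NCs alone, all of them among the 8 higher genes. Foxa1, a forkhead factor of endoderm and floor plate, was 35.4-fold higher, from 0.227 FPKM in ESCs to 8.02 FPKM in NCs. Foxa2 (0.617 and 5.24 FPKM) and Sox17 (0.861 and 3.996 FPKM), both factors of endoderm, lay in the same direction. These 2 were named through the list of definitive endoderm genes and not through this one. The other 3 of the 13 lay within 2-fold, among them the abundant Grb2 (55.2 and 70.0 FPKM) and Sall4 (39.9 and 34.5 FPKM). Hnf4a, which drives the secretory genes of visceral endoderm, was chosen after its value was seen and had 1.21 FPKM in ESCs against 0.430 FPKM in NCs. Hnf4a and Eomes (1.25 and 0.657 FPKM) were both lower in NCs, had means under 1 FPKM and are not among the 13. Klf4 and Nr5a2, which are also pluripotency factors, were the 2 genes past 2-fold lower among the 13, at 31.4 and 3.51 FPKM and at 12.5 and 1.08 FPKM.

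Products of visceral endoderm ranged from near 0 to abundant. Afp, which encodes alpha-fetoprotein, had 0.0161 FPKM in ESCs and, in NCs, 0.0871 FPKM. Ttr, which encodes transthyretin, had 0.0848 and 0.526 FPKM, and Apoa1, an apolipoprotein gene, 0.287 and 0.235 FPKM. Other secreted products were above 1 FPKM in both conditions, among them Rbp4, a retinol carrier gene, at 2.36 and 8.49 FPKM, Trf, which encodes transferrin, at 2.80 and 7.48 FPKM, and Spink3, a protease inhibitor gene, at 4.17 and 3.46 FPKM. Mttp, which loads lipid onto lipoproteins, had 2.16 and 3.18 FPKM. These 7 genes were chosen after their values were seen. Of 32 effector genes of visceral endoderm in the table, 13 were under 1 FPKM in both conditions. Of the 17 with a mean of at least 1 FPKM, 8 were at least 2-fold higher in NCs and 6 at least 2-fold lower, the latter becoming 3 when both conditions were scaled to the same sum. The shares over all genes with such a mean were 11.1% and 9.93%, or 16.4% and 6.77% after that scaling. Of the 17, 5 passed the limit on the mean through NCs alone, all of them among the 8 higher genes, and 2 through ESCs alone. The higher genes included Cyp26a1, the RA-degrading enzyme already named, and Npr1, a natriuretic peptide receptor gene, at 4.84 FPKM in ESCs against 17.2 FPKM in NCs. The lower genes included Otx2, a head organizer factor also expressed by pluripotent cells, at 37.8 and 0.166 FPKM, and Lefty1, a Nodal antagonist, at 47.5 and 3.004 FPKM. Apoe, the most abundant of the list, had 469 and 179 FPKM.

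Genes of the parietal endoderm, the other derivative of primitive endoderm, were more abundant. Of 19 with a mean FPKM of at least 1, 10 were at least 2-fold higher in NCs and 1 at least 2-fold lower, with a median log2 ratio of 1.07. After scaling to the same sum the counts were 11 and 0. The shares over all genes with such a mean were 11.1% and 9.93% as deposited, and 16.4% and 6.77% after that scaling. Plat, which encodes tissue plasminogen activator, was 15.5-fold higher, at 1.56 FPKM in ESCs against 24.2 FPKM in NCs. Snai1, a repressor of epithelial genes, had 2.20 and 10.4 FPKM, and Pth1r, the receptor gene for parathyroid hormone, 3.49 and 11.0 FPKM. The secretory chaperone gene Serpinh1 (61.2 and 157 FPKM) and Vim, which encodes vimentin (76.7 and 192 FPKM), were higher too, while Sparc lay within 2-fold at 142 and 181 FPKM. Many of these genes are also expressed by mesenchymal and neural progenitor cells.

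Trophectoderm genes, set beside Gata2 and Gata3, were split. Of 14 with a mean FPKM of at least 1, 5 were at least 2-fold higher in NCs, 4 at least 2-fold lower and 5 in between, with a median log2 ratio of 0.39. Over all genes with such a mean, the shares were 11.1% higher and 9.93% lower. The lists share genes, so their counts are not separate. Krt8, Krt18 and Krt19 are also on the parietal endoderm list, Fgfr2 on that of primitive endoderm regulators and Esrrb on that of pluripotency markers. Of the 14, 1 passed the limit on the mean through NCs alone and 1 through ESCs alone. Peg10, an imprinted gene of the placenta, was 8.82-fold higher, with 88.6 FPKM in ESCs and, in NCs, 782 FPKM, and Krt18, a keratin gene of simple epithelia, had 45.7 and 103 FPKM. Esrrb (128 and 2.94 FPKM) and Tfap2c (34.0 and 4.59 FPKM), which pluripotent cells also express, were lower, as was the claudin gene Cldn4 (114 and 24.5 FPKM). Cdx2, the factor that specifies trophectoderm, was named after its value was seen and had 0.274 FPKM in ESCs against 0.353 FPKM in NCs. The part of any other cell type in the levels of the 9 genes was not tested. The plot by gene list places the median of the 9 genes beside those of the GATA partners and parietal endoderm genes. The 9 include Gata5, whose mean was under 1 FPKM, and the median over the other 8 was 1.06.

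**Figure D4:**
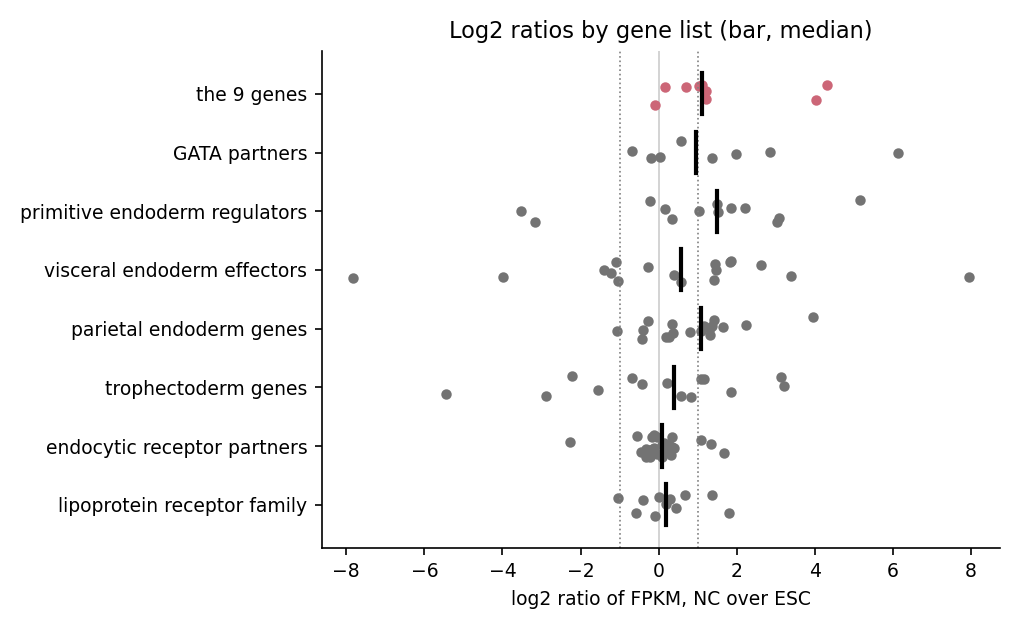
Log2 ratio of FPKM, NC over ESC, for the 9 genes (red) and for the genes of 7 lists with a mean FPKM of at least 1 (grey), 1 point per gene, with black bars at the medians and dotted lines at 2-fold. Vertical position within a row has no meaning. The medians are 1.10 for the 9 genes, 1.48 for primitive endoderm regulators, 1.07 for parietal endoderm genes and 0.07 for endocytic receptor partners. Over the 8 of the 9 genes with a mean FPKM of at least 1, the median was 1.06.

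By position in the GENCODE M21 annotation of GRCm38, which is the assembly that mm10 denotes, 4 of the genes lie on chromosome 2, all on the minus strand and far apart. Gata3 spans 9857078 to 9890034, Cubn 13276338 to 13491813, Lrp2 69424340 to 69586065 and Gata5 180325133 to 180334699. Gata2 lies on chromosome 6 (88193891 to 88207032, plus strand) and Gata4 on chromosome 14 (63198922 to 63271692, minus strand). Dab2 lies on chromosome 15 (6299788 to 6440712) and Amn on chromosome 12 (111271095 to 111276426), both on the plus strand. Gata6 lies on the plus strand of chromosome 18.

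Overlapping transcripts touch some of these values. Gata5os, an antisense gene, shares 258 exon bases with Gata5 and was listed at 0.0336 FPKM in ESCs against 0.187 FPKM in NCs under the name Gm14318. Within the span of Gata3, 4930412O13Rik on the other strand had 0.0238 and 0.482 FPKM, and 9230102O04Rik on the same strand, with 77 exon bases in common, was listed at 0 in ESCs but had 0.384 FPKM in NCs. Gm13256 shares 155 exon bases with Gata3 and Gm13270 shares 368 with Cubn, and neither was matched to an entry of the table. Whether counting used the strand is not given in the sources used here, so reads of a gene and its antisense partner cannot be told apart. Of the 50-base words in each gene's transcripts, the share also found in another gene was 0% for Gata2, Gata4, Amn and Lrp2. It was 5.05% for Gata5, 2.22% for Gata3, 2.14% for Dab2, which shares exon bases with the processed pseudogene Gm18888, 1.85% for Cubn and 0.682% for Gata6.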

How the data were processed

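RNA-seq libraries of 3 ESC and 3 NC samples were prepared with a TruSeq kit. Per the labels and the study's methods, the authors aligned reads to mm10 with TopHat2 (version 2.0.8) running Bowtie2 (version 2.1.0), assembled transcripts with Cufflinks 2.0.2 and compared conditions with Cuffdiff, whose version, normalization option and strand setting are not given in the sources used here. The deposited FPKM values are those of the authors, 1 per gene and condition, and the heading of the NC column reads FPK. The table's other columns hold the authors' own comparison (fold change, test statistic, p-value, q-value) and were not used. Ratios were computed from the FPKM without a pseudocount, and all genes with a mean FPKM of at least 1 served as background. Depth per sample is unknown. The fragment length was taken as 200 bases. Named in each list were up to 4 genes with the highest FPKM and 4 with the largest change in log2(FPKM + 1), and others are marked. Values of some genes that this rule names are not reported here. The 9 genes and the lists were chosen with earlier results of these data known. Counting was tested on simulated data. Python 3.11.15 was used with numpy 2.4.6, pandas 2.3.3 and matplotlib 3.10.9.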

Additional observations from a re-analysis of the deposited data

How the results depend on the processing

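The count of genes at least 2-fold higher in NCs, 6 of 9, was 5 with 0.1 FPKM added to both values (without Cubn), 6 after centring on the median of all genes or scaling to the same sum, 7 at a limit of 1.5-fold (with Lrp2), 3 with 1 FPKM added (Gata3, Gata5 and Dab2) and 2 at a limit of 4-fold (Gata3 and Gata5). None of the 9 was lower past the limit in any of these. Of all genes with a mean FPKM of at least 1, 7.91% were at least 2-fold higher with 1 FPKM added to both values. That share was 11.7% after centring and 16.4% after scaling to the same sum. It was not computed with 0.1 FPKM added or at limits of 1.5-fold and 4-fold. The median log2 ratio of the 9 genes ran from 0.86 with 1 FPKM added to 1.40 after scaling to the same sum. The log2 ratio of Amn turned from -0.10 to 0.20 after scaling to the same sum, a setting that adds 0.29 to every ratio. The other 8 genes kept their direction in all 4 settings of pseudocount and scaling. The band with a mean of 1 to 20 FPKM and the scaled shares of all genes were added after the data were seen. No paired analysis was possible because the table holds 1 pooled value per condition, and for the same reason leaving out a replicate was not run. Ratios near the limit (Cubn, Dab2, Gata2, Gata6) and inside it (Lrp2, Gata4, Amn) were not set against the spread between samples here, since the authors' own test columns were not used.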

Other observations

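Early blood genes, with which Gata1 and Gata2 act, were scarce in both conditions. Of 15 in the table, 12 were under 1 FPKM in both. Lmo2, a partner of GATA factors in blood, had 0.565 FPKM in ESCs and, in NCs, 1.46 FPKM, Etv2, a factor of blood and endothelial progenitors, had 1.61 and 0.829 FPKM, and Pecam1, an adhesion gene of endothelium that mouse ESCs also express, had 24.7 and 2.79 FPKM.

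Definitive endoderm genes were split, with 3 of the 9 that had a mean FPKM of at least 1 at least 2-fold higher in NCs, 3 at least 2-fold lower (2 after scaling to the same sum) and 3 in between. Foxa2 and Sox17, already described, were among the higher genes, and all 3 of these passed the limit on the mean through NCs alone. Trh, the gene for thyrotropin-releasing hormone, was the most abundant in ESCs, at 240 FPKM, and had 6.28 FPKM in NCs. Epcam, an epithelial adhesion gene, had 106 FPKM in ESCs against 29.8 FPKM in NCs.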
